A study of Rattus norvegicus with 32 samples.

Results

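Serpins are a superfamily of proteins named for serine protease inhibition, and they are divided into clades that carry the letters of the gene names. An inhibitory serpin offers a reactive loop as bait, is cut by its target protease and traps that protease in a covalent complex, so that each molecule acts once. Clade B serpins lack a classical signal peptide and act mostly inside or around epithelial and blood cells, where they limit neutrophil proteases, granzymes, cathepsins and plasminogen activators; clade A and most of the remaining clades are secreted, many of them by the liver into plasma. In skin, several clade B serpins are made by keratinocytes, and loss of SERPINB7 causes a thickening of the palms and soles.

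The serpins described here were the probe sets whose only gene symbol starts with Serpin. The rule found 36 probe sets for 36 genes among 15310 probe sets with a single symbol, and 2 further serpin probe sets that carry several symbols were left out. By clade letter there were 13 members of clade A, 14 of clade B, 2 of clade F, 2 of clade I and 1 each of clades C, D, E, G and H. All levels are log2 signals, so that a difference of 1 is a doubling, and levels of different probe sets are not compared, because probes bind with unequal strength. Levels under 4 are treated as not distinguished from background.

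The series compared cultured thymic epithelial cells (TEC), the stromal cells of the thymus, with cultured hair follicle (HF) cells before and after transplantation into skin. All cells came from Sprague-Dawley rats that carry the act-EGFP transgene and express EGFP constitutively, and all were grown on irradiated 3T3-J2 cells, a mouse fibroblast line used as a feeder layer. RNA of 16 cultures was hybridised to Affymetrix arrays, with 2 arrays per culture whose mean is the level used here. The 4 ungrafted TEC cultures were PRE16cl11_VII (a clone from stage E16), PRP1cl11_VII (a clone from P1), PRP4mo_bulk and PRP4mo_Cl09 (an uncloned and a clonal culture from 4 months). After the first transplantation there were 4 TEC cultures, namely Clone_217 and Clone_218 from E16, Clone_57 from P1 and Clone_907, labelled as bulk, from 4 months. After the second transplantation there were 4 more, namely Clone_287 and Clone_347 from E16, Clone_194 from P1 and Clone_354, labelled as bulk, from 4 months. HF cells, all labelled P5, were measured before grafting as YR219P5_Bulk_V and the clone YR219P5cl7, and after the first transplantation as the bulk culture YR219P5_RC and the clone Clone_54. Grafted cells had been regained from skin grafts on nude mice by dissociation. The labels do not tie a grafted culture to its ungrafted parent, 11 of the 16 cultures were clones, and no TEC culture is labelled P5, so donor stage and tissue of origin cannot be told apart. Nothing states that cultures of a group came from separate animals, so the p-values measure the spread between these cultures.

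Arrays of the same culture correlated at r between 0.984 and 0.996 across probe sets, and array medians ran from 5.29 to 5.55 except for array 1 of YR219P5_RC at 5.78. On that array 30 of the 36 serpins read higher than on its partner, by a median of 0.23. The median of all probe sets was 0.10 higher in grafted than in ungrafted HF cultures, and changes that involve grafted HF cells are to be read against that shift. YR219P5_Bulk_V stood apart from the other 15 cultures for some markers. Of the 4 measured markers of stratified epithelium, Epcam (7.64 against 9.73 to 10.87) and Cdh1 (9.19 against 10.44 to 10.79) were lowest there, Tp63 (10.10 against 9.02 to 9.80) was highest and Krt14 (13.10) was within range. Of the 11 measured fibroblast markers Fbn1 (5.93 against 4.18 to 4.81), Vim and Thy1 were highest there, and the other 8, the collagens among them, were not. Of the serpins, 6 had their lowest level in that culture, and 4 of these were clade B members. The share of all probe sets lowest in that culture was not counted, so this is not shown to be particular to serpins. In these bulk RNA samples, fewer cells of a type and less RNA per cell cannot be told apart. Of the listed markers of thymic epithelium, Krt8, Pax9 and Pax1 were higher in every ungrafted TEC culture than in every HF culture. Aire went the other way, at 5.74 to 5.89 in ungrafted TEC and 5.97 to 6.20 in HF cells. Psmb11 overlapped, at 3.95 to 4.17 and 4.02 to 4.52. Foxn1, the master factor of thymic epithelium, read 5.67 to 6.02 in ungrafted TEC and 5.13 to 6.15 in HF cells, and Ccl25 stayed under 4 in all cultures.

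Of the 36 serpins, 12 read under 4 in all 16 cultures, 6 did so in some cultures and 18 never did. The 12 dim members were 6 of the 13 of clade A (Serpina16, Serpina3m, Serpina4, Serpina5, Serpina7 and Serpina9), 4 of the 14 of clade B (Serpinb13, Serpinb3, Serpinb6b and Serpinb9d) and both members of clade I (Serpini1, neuroserpin, and Serpini2). A mean of 10 or more over all cultures was reached by 6 serpins, of which Serpinb1a, Serpinb2, Serpinb5, Serpinb6a and Serpinb10 are clade B and Serpinh1 is the collagen chaperone HSP47. A span of at least 2 between the lowest and the highest culture was found for 6 serpins (16.7%) against 7.67% of all probe sets: Serpinb7 (7.58), Serpine2 (4.59), Serpinb11 (4.29), Serpinb9 (4.23), Serpina1 (2.76) and Serpinb8 (2.40). At a span of at least 1 the shares were close, at 33.3% of serpins and 31.5% of all probe sets. The variation thus lay in a few members, mostly of clade B.

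**Figure D1:**
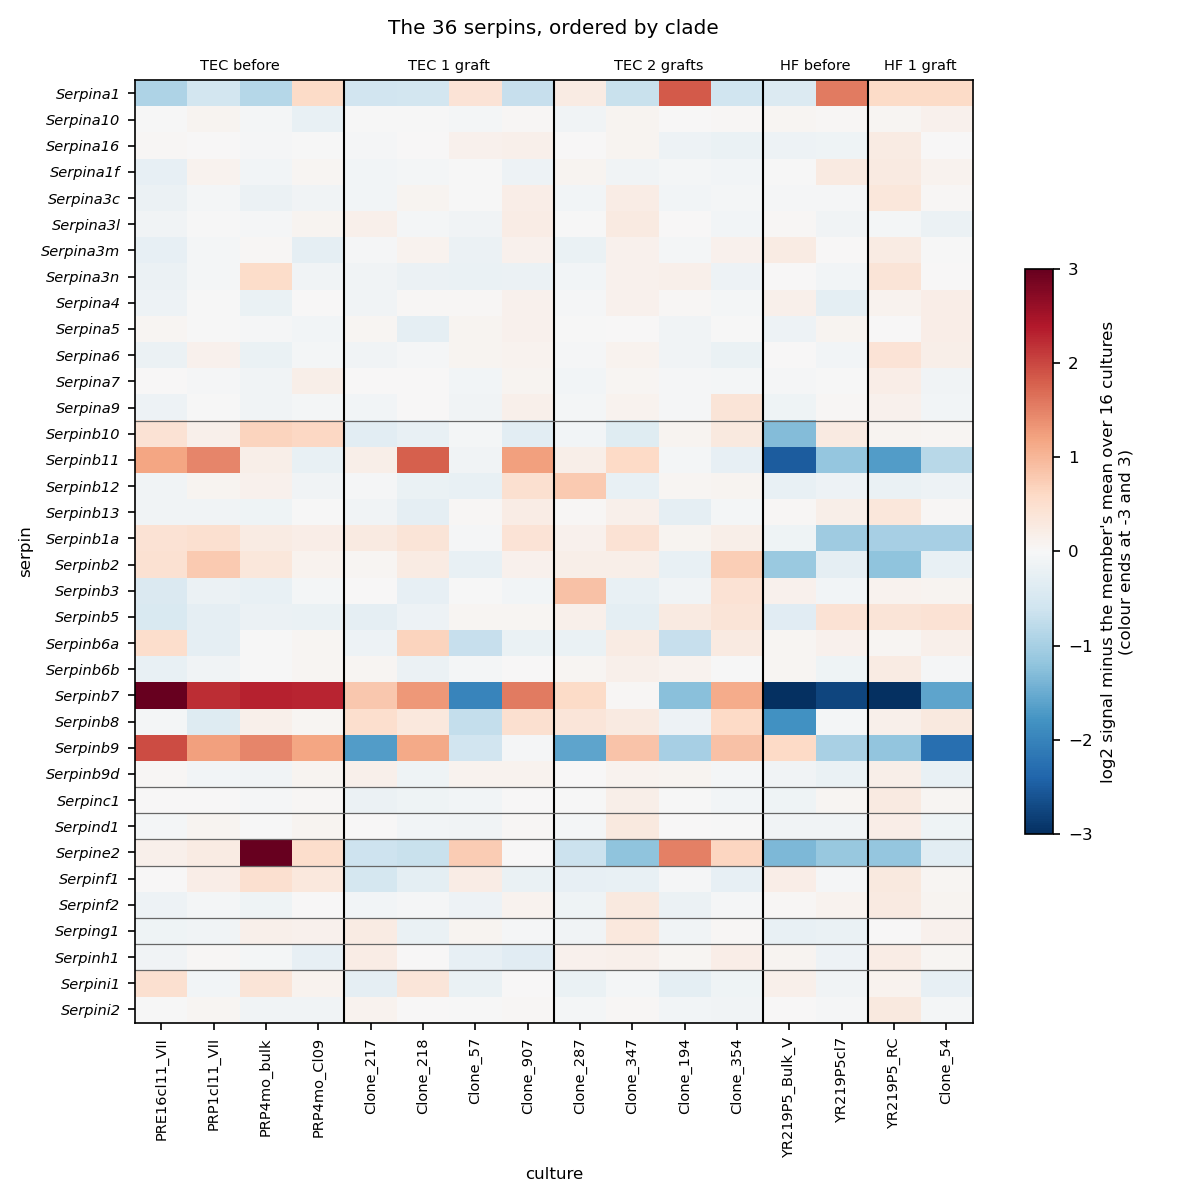
Level of each of the 36 serpins in each of the 16 cultures, as the log2 signal minus that member's mean over all cultures; rows are ordered by clade and columns by group, and colours end at -3 and 3. Serpinb7, Serpinb11, Serpinb9, Serpine2 and Serpina1 carry most of the colour, and the other clade A rows are nearly blank.

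Before grafting, TEC cultures had more RNA of 3 clade B serpins than HF cultures: Serpinb7, the serpin whose loss causes palmoplantar keratosis, Serpinb11, an epithelial member that precedes it in the order of serpins on chromosome 13, and Serpinb1a, an inhibitor of neutrophil elastase, cathepsin G and proteinase 3. These were the only serpins past the threshold, an adjusted p under 0.05 in limma's moderated test with Benjamini-Hochberg adjustment over all probe sets, and all were higher in TEC. The share, 8.33% of 36 serpins, stands beside 1.55% of all probe sets called in that comparison (0.967% higher in TEC). The members were chosen with earlier results of these data known, so shares of serpins beside all probe sets are not a test of the family. The median difference was 0.03 over the serpins and -0.01 over all probe sets. The bases upstream of the annotated starts of these members are given here, since they were the serpins called between the ungrafted tissues. The sequences are RefSeq's for the rat build GRCr8, end at the base before the start and are read on the gene's strand.

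Serpinb7, chr13:23910056-23910305, plus strand: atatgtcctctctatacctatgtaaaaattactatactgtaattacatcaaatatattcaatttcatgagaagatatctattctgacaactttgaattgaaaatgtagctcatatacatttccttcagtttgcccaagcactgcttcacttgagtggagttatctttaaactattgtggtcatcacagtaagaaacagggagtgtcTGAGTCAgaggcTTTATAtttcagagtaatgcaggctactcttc

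Serpinb11, chr13:23840576-23840825, plus strand: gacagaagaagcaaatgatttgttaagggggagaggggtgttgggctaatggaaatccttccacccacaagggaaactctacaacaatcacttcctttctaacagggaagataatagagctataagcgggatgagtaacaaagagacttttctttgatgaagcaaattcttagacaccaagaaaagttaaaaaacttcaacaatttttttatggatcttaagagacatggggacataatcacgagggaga

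Serpinb1a, chr17:31799196-31799445, plus strand: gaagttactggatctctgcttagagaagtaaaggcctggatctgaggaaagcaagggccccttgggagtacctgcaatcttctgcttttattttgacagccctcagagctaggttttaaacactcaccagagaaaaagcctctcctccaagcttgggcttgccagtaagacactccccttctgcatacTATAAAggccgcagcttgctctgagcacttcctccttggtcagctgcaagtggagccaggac

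Capitals mark 2 motifs that were searched on both strands in the 250 bases: the AP-1 motif TGANTCA and the TATA box TATAAA. The Serpinb7 promoter held TGAGTCA at 44 to 38 bases before the start. At 32 to 27 bases it held TTTATA, which is TATAAA on the opposite strand only. In the Serpinb1a promoter TATAAA stood at 62 to 57 bases before the start, and the Serpinb11 window held neither. Among 33469 rat promoters of that length, 6.34% held the AP-1 motif and 12.9% held TATAAA, each counted on either strand. Promoters were found for 29 of the 36 serpins. The AP-1 motif was in those of Serpinb2, Serpinb3, Serpinb5 and Serpinb7, all clade B. TATAAA on either strand was in those of Serpinb13, Serpinb1a, Serpinb3, Serpinb7 and Serpini2. A match is a description of the letters and does not show binding.

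Serpinb7 had the widest span of all serpins. In ungrafted TEC it read 11.33 in PRE16cl11_VII, 10.55 in PRP1cl11_VII, 10.64 in PRP4mo_bulk and 10.61 in PRP4mo_Cl09. In ungrafted HF cells it read 3.75 in YR219P5_Bulk_V, not distinguished from background, and 5.57 in YR219P5cl7. The groups were far apart, and every TEC culture was above every HF culture. The means were 10.78 ± 0.36 (SD, n = 4) and 4.66 ± 1.29 (SD, n = 2), the log2 difference was 6.13 ± 0.88 (SE) and limma's adjusted p was 0.00544. With the level under 4 set at 4, the difference was 6.0, or 64.0-fold. Without YR219P5_Bulk_V it was 5.22, with limma's adjusted p at 0.106 for a single remaining HF culture that is assumed to vary like the other groups; without YR219P5cl7 it was 7.04 (limma's adjusted p = 0.00399). Among clonal cultures alone it was 5.26 (limma's adjusted p = 0.278). Over 26 alternatives the adjusted p in limma ran from 1.62e-08 to 0.278, and 24 passed. Here and below, the alternatives include a fit of all 32 arrays with culture as a random block. It uses a shared array correlation for all probe sets. Its p-values can be too small where cultures differ far more than their arrays.

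After grafting, Serpinb7 in TEC read lower than in any ungrafted TEC culture. Levels after the first transplantation were 9.13 in Clone_217, 9.62 in Clone_218, 6.35 in Clone_57 and 9.89 in Clone_907. After the second they were 8.90 in Clone_287, 8.36 in Clone_347, 7.08 in Clone_194 and 9.44 in Clone_354. In both states the culture from P1 was the lowest, and none of the grafted cultures overlapped the ungrafted ones. In HF cells after grafting the levels were 5.26 in YR219P5_RC and 6.74 in Clone_54, so that Clone_57 lay between the grafted HF cultures. The difference from ungrafted TEC was -2.03 ± 0.72 (SE) after the first and -2.34 ± 0.72 after the second transplantation, and neither passed the threshold (limma's adjusted p = 0.212 and 0.0855). For the second transplantation limma's adjusted p ran below 0.05 without Clone_57 (0.0258), with donor stage as a covariate (0.0391) and with only the compared groups in the fit (0.0354); over its 26 alternatives it ran from 0.00127 to 0.200. The mean level of the 8 thymic epithelial marker probe sets was 7.0 to 7.39 in ungrafted TEC cultures. It was 5.91 to 6.77 and 5.85 to 6.78 after the first and second transplantations, beside 5.34 to 5.58 in HF cultures. The list did not move as a whole. Krt8, counted with 2 probe sets, and Pax9 were lower in most grafted than in all ungrafted TEC cultures, and Pax1 in every grafted culture. Foxn1 (5.48 to 6.01 grafted, 5.67 to 6.02 ungrafted), Psmb11 and Ccl25 overlapped. Aire read higher in most grafted cultures (5.71 to 6.21 against 5.74 to 5.89). The part of these markers in the Serpinb7 levels was not tested.

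Serpinb11 read 6.89, 7.17, 5.89 and 5.49 in the ungrafted TEC cultures PRE16cl11_VII, PRP1cl11_VII, PRP4mo_bulk and PRP4mo_Cl09. In ungrafted HF cells it read 3.22 in YR219P5_Bulk_V, under the background level, and 4.54 in YR219P5cl7. Both HF cultures lay below all TEC cultures, and the levels within TEC spread more than those of Serpinb7. The difference was 2.48 ± 0.57 (SE; limma's adjusted p = 0.0483) between means of 6.36 ± 0.80 (SD, n = 4) and 3.88 ± 0.94 (SD, n = 2), and 2.09 with the level under 4 set at 4. This call was near the threshold: when cultures were left out in turn, it passed in 4 of 16 fits, those without PRP4mo_Cl09, Clone_218, Clone_57 or YR219P5cl7, and limma's adjusted p rose to 0.502 without YR219P5_Bulk_V, where the difference was 1.82. Under the 10 other settings it passed in 3, with limma's adjusted p from 0.000910 to 0.680 over all 26.

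The level of Serpinb11 in TEC after grafting was 5.88 in Clone_217, 7.50 in Clone_218, 5.60 in Clone_57 and 6.93 in Clone_907, then 5.89 in Clone_287, 6.31 in Clone_347, 5.66 in Clone_194 and 5.46 in Clone_354. They overlapped those of the ungrafted cultures in both states, unlike the levels of Serpinb7. Grafted HF cells read 4.05 in YR219P5_RC and 4.89 in Clone_54, below all 12 TEC cultures. The tissue difference after the first transplantation was 2.01 ± 0.57 (SE; limma's adjusted p = 0.177). The 2 arrays of Clone_347 differed by 1.39 for this probe set, the largest gap of any culture.

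Serpinb1a read 12.20, 12.26, 12.01 and 11.96 in the ungrafted TEC cultures in the order above. In ungrafted HF cells it read 11.63 in YR219P5_Bulk_V and 10.71 in YR219P5cl7. The groups did not overlap, but the bulk HF culture lay closer to TEC than to the HF clone. The difference was 0.93 ± 0.21 (SE; limma's adjusted p = 0.0414) between means of 12.11 ± 0.14 (SD, n = 4) and 11.17 ± 0.65 (SD, n = 2). It was 1.39 (limma's adjusted p = 0.0104) without YR219P5_Bulk_V and 0.48 (limma's adjusted p = 0.278) without YR219P5cl7, and it passed in 4 of the 16 fits that each leave out a culture, those without Clone_218, Clone_57, Clone_347 or YR219P5_Bulk_V. Over 26 alternatives limma's adjusted p ran from 7.78e-05 to 0.278, and 10 passed.

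After grafting, Serpinb1a stayed within the ungrafted range or close to it in TEC. It read 12.03 in Clone_217, 12.16 in Clone_218, 11.72 in Clone_57 and 12.18 in Clone_907, then 11.91 in Clone_287, 12.20 in Clone_347, 11.84 in Clone_194 and 11.94 in Clone_354. Both grafted HF cultures, YR219P5_RC and Clone_54, read 10.78, below every TEC culture. It was the only serpin called between TEC and HF cells after the first transplantation, 1 of 36 (2.78%) against 0.0718% of all probe sets (0.0457% higher in TEC), at 1.24 ± 0.21 (SE; limma's adjusted p = 0.0452). That call held in 3 of the 16 fits without a culture (without Clone_57, YR219P5_Bulk_V or YR219P5cl7), over which the difference stayed between 1.19 and 1.34; over 26 alternatives limma's adjusted p ran from 6.91e-06 to 0.727. YR219P5_Bulk_V and YR219P5cl7 are in neither compared group. Leaving out either only removes the spread of ungrafted HF cells from the pooled estimate, so these passes are the same test. After the second TEC transplantation, set against HF cells after their first, the difference was 1.19 ± 0.21 (limma's adjusted p = 0.0679), and no serpin was called against 0.0457% of all probe sets. The change with grafting in TEC was -0.09 ± 0.17 and -0.13 ± 0.17 (SE), with 95% intervals from -0.45 to 0.28 and from -0.49 to 0.23, so a doubling lay outside both intervals.

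**Figure D2:**
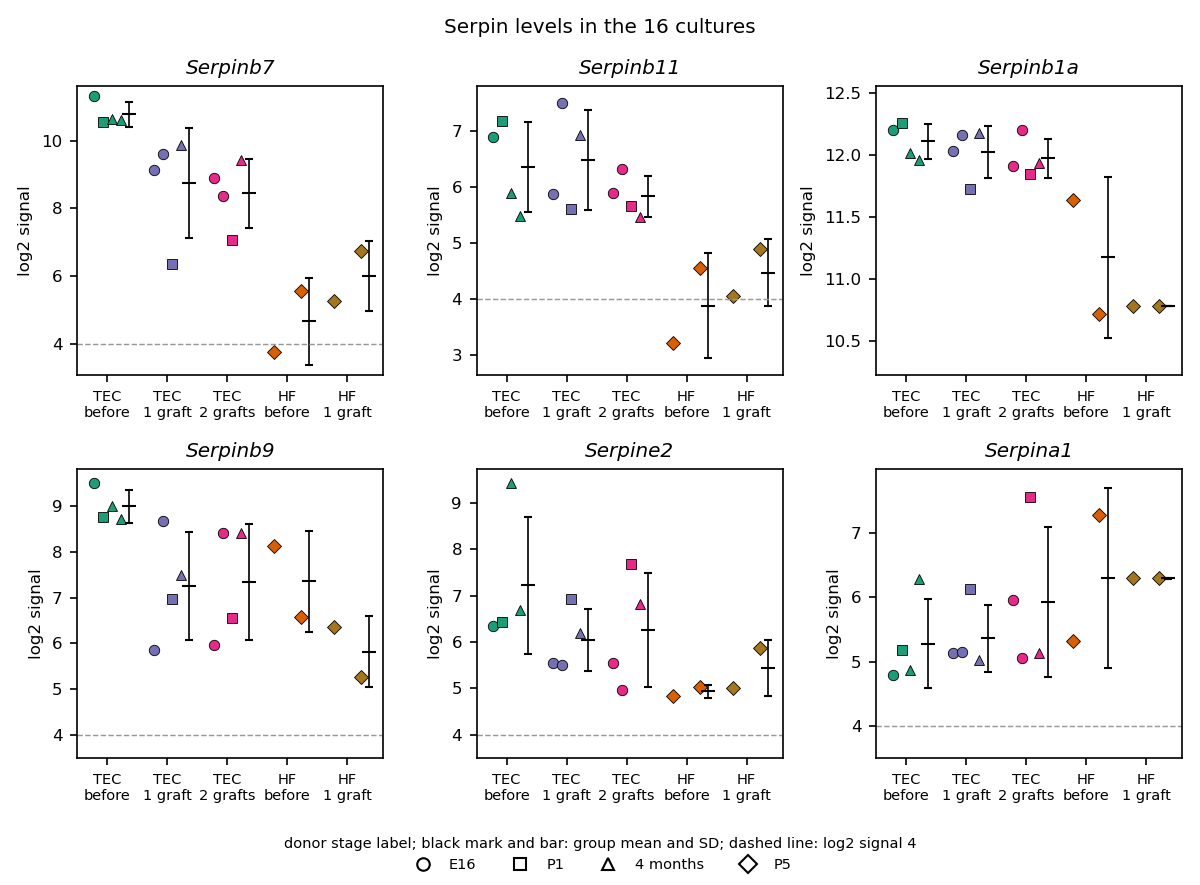
Log2 signal of 6 serpins in the 16 cultures; each point is a culture, its shape gives the donor stage label, its colour the group, and the black mark and bar give the group mean and SD. Serpinb7 is highest in ungrafted TEC (10.55 to 11.33), lower in grafted TEC (6.35 to 9.89) and lowest in most HF cultures (3.75 to 6.74), whereas Serpinb1a stays between 11.72 and 12.26 in all TEC cultures.

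The remaining clade B members on chromosome 13 did not pass the threshold before grafting. In the order of the RefSeq annotation of GRCr8 the members there are Serpinb5, Serpinb12, Serpinb13, Serpinb3, Serpinb11, Serpinb7, Serpinb2, Serpinb10 and Serpinb8. The largest differences between ungrafted TEC and HF cells lay at the consecutive members Serpinb11 and Serpinb7, with Serpinb2 at 1.12 ± 0.31 (SE; limma's adjusted p = 0.101), Serpinb10 at 0.98 ± 0.31 (limma's adjusted p = 0.154) and Serpinb8 at 0.87 ± 0.41 (limma's adjusted p = 0.378). Without YR219P5cl7 these were 1.54, 1.77 and 1.75 and all were called (limma's adjusted p = 0.0494, 0.000911 and 0.0337), with YR219P5_Bulk_V as the single HF culture; without YR219P5_Bulk_V the differences were 0.69, 0.19 and -0.0030, and none was called. Over all alternatives limma's adjusted p of these members ran up to 0.696, 0.996 and 0.999. At the other end of the run, Serpinb5 was at -0.32 ± 0.20, and Serpinb12, Serpinb13 and Serpinb3 lay between -0.25 and 0.18.

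**Figure D3:**
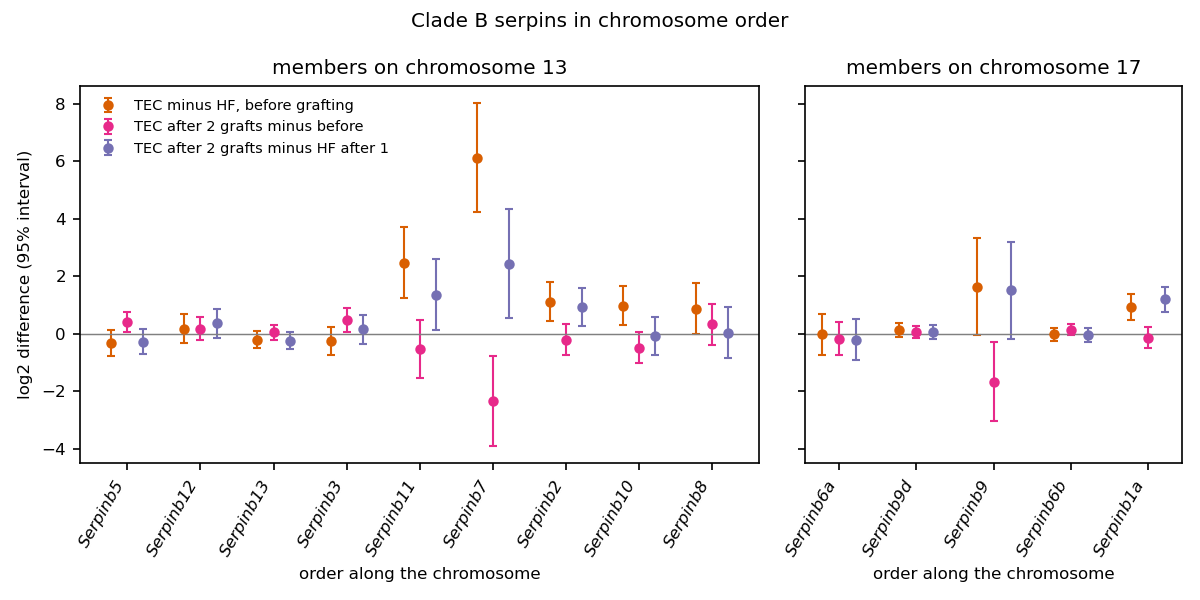
Log2 difference with its 95% interval for the 14 clade B serpins, in their order along chromosomes 13 and 17 (spacing not to scale), for ungrafted TEC minus ungrafted HF cells, twice-grafted minus ungrafted TEC, and twice-grafted TEC minus grafted HF cells; the comparisons share cultures. Serpinb7 has the largest difference in each on chromosome 13, 6.13, -2.34 and 2.45. Between the ungrafted tissues the median over the 14 members is 0.53. Serpinb11, Serpinb9, Serpinb2, Serpinb10, Serpinb1a and Serpinb8 also lie above that median, and 5 members lie below 0.

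Serpinb2, the plasminogen activator inhibitor PAI-2, read 12.07, 12.38, 11.93 and 11.71 in PRE16cl11_VII, PRP1cl11_VII, PRP4mo_bulk and PRP4mo_Cl09. In HF cells the bulk cultures were the low ones, with 10.48 in YR219P5_Bulk_V and 10.39 in YR219P5_RC, beside 11.33 in YR219P5cl7 and 11.38 in Clone_54. After grafting TEC read 11.67, 11.85, 11.37 and 11.74 in Clone_217, Clone_218, Clone_57 and Clone_907 and 11.78, 11.79, 11.37 and 12.35 in Clone_287, Clone_347, Clone_194 and Clone_354. The P1 culture was the highest before grafting and the lowest in each grafted state. None of its 9 comparisons passed the threshold.

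Serpinb10, known as bomapin and first described in blood-forming cells, read 11.67, 11.37, 11.89 and 11.85 in the ungrafted TEC cultures. Once-grafted cultures read 10.90, 11, 11.17 and 10.91 in Clone_217, Clone_218, Clone_57 and Clone_907, all below the ungrafted range, at -0.70 ± 0.25 (SE; limma's adjusted p = 0.221). Its adjusted p in limma was 0.0435 without YR219P5_Bulk_V and likewise without YR219P5cl7, and over all alternatives it ran from 0.0123 to 0.477. After the second it read 11.15, 10.86, 11.31 and 11.53 in Clone_287, Clone_347, Clone_194 and Clone_354, which overlapped the ungrafted range. HF cells read 9.93 in YR219P5_Bulk_V, 11.50 in YR219P5cl7, 11.31 in YR219P5_RC and 11.28 in Clone_54, so that the bulk ungrafted culture alone was low. Its test of whether the first transplantation acted differently on the tissues, an interaction, gave -1.28 ± 0.44 (SE; limma's adjusted p = 0.826), and -2.07 (limma's adjusted p = 0.00408) without YR219P5cl7, the lowest p of 25 alternatives, of which no other passed. The haematopoietic markers that were listed had 4 of 6 probe sets (Ptprc, Cd3e, Lyz2 and Itgam) under 4 in all cultures. The other two were above it, Cd14 at 8.52 to 9.99 and Cd68 at 5.17 to 8.78, highest in Clone_347; their part in the Serpinb10 levels was not tested.

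Serpinb8, an inhibitor of furin in vitro, and the following Serpinb9, Serpine2 and Serpina1 are described by culture because their spans, seen in these data, were wide. Serpinb8 read 8.28, 7.96, 8.48 and 8.41 in ungrafted TEC, 8.85, 8.65, 7.63 and 8.82 in Clone_217, Clone_218, Clone_57 and Clone_907, and 8.70, 8.62, 8.18 and 8.93 in Clone_287, Clone_347, Clone_194 and Clone_354. In HF cells it read 6.53 in YR219P5_Bulk_V, 8.29 in YR219P5cl7, 8.50 in YR219P5_RC and 8.64 in Clone_54. The wide span thus came from a low level in YR219P5_Bulk_V. Between grafted and ungrafted HF cells it had the smallest p of the serpins, at 1.16 ± 0.47 (SE; limma's adjusted p = 0.562), in a comparison where no probe set was called (0% of all probe sets). Without YR219P5cl7 that difference was 2.04 (limma's adjusted p = 0.0311), the only pass among 26 alternatives.

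Serpinb5 is maspin, a serpin of epithelial cells without inhibitory activity against proteases. It read 10.52, 10.69, 10.80 and 10.78 in ungrafted TEC, 10.71, 10.81, 11.02 and 11.03 in Clone_217, Clone_218, Clone_57 and Clone_907, and 11.13, 10.69, 11.24 and 11.36 in Clone_287, Clone_347, Clone_194 and Clone_354. In HF cells it read 10.63 in YR219P5_Bulk_V, 11.40 in YR219P5cl7, 11.36 in YR219P5_RC and 11.40 in Clone_54. All levels lay within 0.88 of each other, and grafted HF cultures were at the top of the range with YR219P5cl7 and Clone_354. The change in twice-grafted TEC was 0.41 ± 0.17 (SE; limma's adjusted p = 0.187). Of the serpins it had the smallest p between donor stages, 4 months minus E16 within TEC, at 0.34 ± 0.10 (SE; limma's adjusted p = 0.273); no serpin passed there, beside 0.0914% of all probe sets.

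The low members of the chromosome 13 run were Serpinb12, which exceeded 4 only in Clone_287 (4.30), and Serpinb13 and Serpinb3, which are inhibitors of cathepsins and lay under 4 everywhere.

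The members on chromosome 17, in annotation order, are Serpinb6a, Serpinb9d, Serpinb9, Serpinb6b and Serpinb1a. Their genes have close copies in rodents, so signals of Serpinb6a and Serpinb6b, and of Serpinb9 and Serpinb9d, could include RNA of a copy; Serpinb6b and Serpinb9d read under 4 in all cultures. Serpinb6a, an inhibitor of cathepsin G, read 10.87, 10.05, 10.31 and 10.40 in ungrafted TEC, 10.19, 11.01, 9.65 and 10.13 in Clone_217, Clone_218, Clone_57 and Clone_907, and 10.13, 10.57, 9.64 and 10.61 in Clone_287, Clone_347, Clone_194 and Clone_354. The P1 cultures were the lowest in each of the TEC groups. In HF cells it read 10.39 in YR219P5_Bulk_V, 10.46 in YR219P5cl7, 10.39 in YR219P5_RC and 10.49 in Clone_54, a narrower range than in TEC. The difference between ungrafted tissues was -0.02 ± 0.33 (SE), with a 95% interval from -0.73 to 0.70.

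Serpinb9, the inhibitor of granzyme B, was lower in all grafted than in all ungrafted TEC cultures and varied widely among clones of the same donor stage. It read 9.51 in PRE16cl11_VII, 8.76 in PRP1cl11_VII, 9.0 in PRP4mo_bulk and 8.72 in PRP4mo_Cl09. Once-grafted cultures read 5.86 in Clone_217, 8.68 in Clone_218, 6.97 in Clone_57 and 7.50 in Clone_907, and after the second 5.96 in Clone_287, 8.40 in Clone_347, 6.55 in Clone_194 and 8.42 in Clone_354. All grafted cultures lay below all ungrafted ones, and in each grafted state 1 of the 2 E16 clones lay just below the ungrafted cultures while its partner was the lowest of its group. The differences from ungrafted TEC were -1.75 ± 0.64 and -1.67 ± 0.64 (SE), and neither passed (limma's adjusted p = 0.225 and 0.159). HF cells read 8.13 in YR219P5_Bulk_V and 6.57 in YR219P5cl7 before grafting and 6.37 in YR219P5_RC and 5.28 in Clone_54 after it, again without overlap, at -1.53 ± 0.90 (SE; limma's adjusted p = 0.597). The median gap between the arrays of a culture was 0.11 for this probe set, far less than the gap between the clones.

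**Figure D4:**
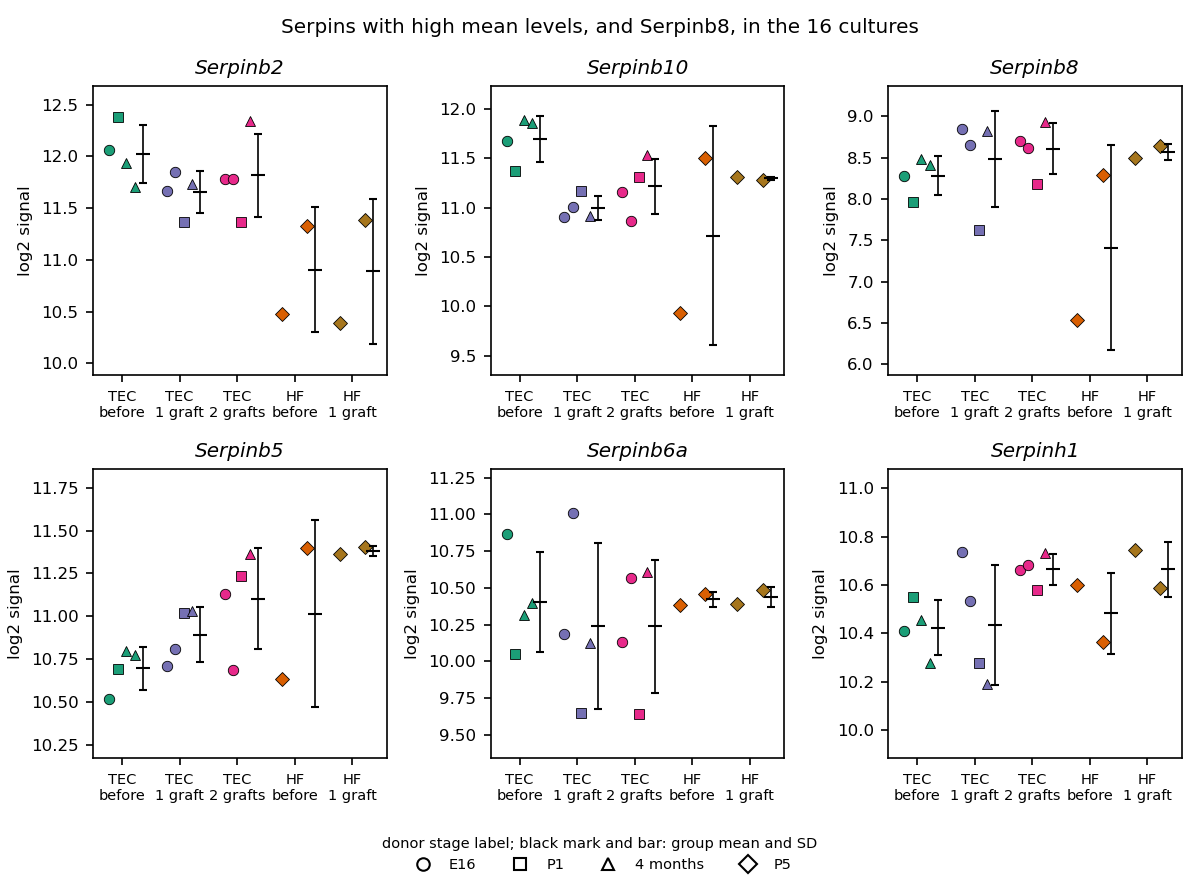
Log2 signal of the 5 other serpins with a mean of 10 or more and of Serpinb8 in the 16 cultures; points are cultures, shapes donor stages, and the black mark and bar are the group mean and SD. The lowest point for Serpinb10 and Serpinb8 is the ungrafted bulk HF culture YR219P5_Bulk_V (9.93 and 6.53), and Serpinh1 varies least (10.19 to 10.75).

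Outside clade B, Serpinh1 was the steadiest of the highly expressed serpins. This chaperone of the endoplasmic reticulum binds procollagen and inhibits no protease. It read 10.41, 10.55, 10.46 and 10.28 in ungrafted TEC, 10.74, 10.53, 10.28 and 10.19 in Clone_217, Clone_218, Clone_57 and Clone_907, and 10.66, 10.68, 10.58 and 10.73 in Clone_287, Clone_347, Clone_194 and Clone_354. HF cells read 10.60 in YR219P5_Bulk_V, 10.37 in YR219P5cl7, 10.75 in YR219P5_RC and 10.59 in Clone_54. Twice-grafted TEC lay just above the ungrafted cultures without overlap, at 0.24 ± 0.11 (SE; limma's adjusted p = 0.264). Of its 19 listed partners in collagen folding, 17 were measured, and 1 passed in any comparison (5.88%, beside 3.86% of all probe sets called there): the prolyl isomerase Ppib, which was 0.48 ± 0.12 (SE) lower in twice-grafted TEC (11.05 ± 0.23 against 11.53 ± 0.11, SD, n = 4 each; limma's adjusted p = 0.0447).

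Serpine2, protease nexin-1, inhibits thrombin and urokinase at the cell surface. It read 9.43 in PRP4mo_bulk but 6.34, 6.43 and 6.70 in PRE16cl11_VII, PRP1cl11_VII and PRP4mo_Cl09. After grafting it read 5.56, 5.51, 6.93 and 6.19 in Clone_217, Clone_218, Clone_57 and Clone_907 and 5.54, 4.97, 7.68 and 6.82 in Clone_287, Clone_347, Clone_194 and Clone_354. In both grafted states the P1 culture was the highest, then the bulk culture from 4 months, then the E16 clones. HF cells read 4.84 in YR219P5_Bulk_V, 5.04 in YR219P5cl7, 5.01 in YR219P5_RC and 5.86 in Clone_54. Ungrafted TEC lay above ungrafted HF cells without overlap, at 2.28 ± 0.84 (SE; limma's adjusted p = 0.230; 1.55 without PRP4mo_bulk), and the difference of 4 months from E16 within TEC was 1.49 ± 0.58 (SE; limma's adjusted p = 0.389; 0.97 without PRP4mo_bulk). The mean level of 11 fibroblast marker probe sets was 5.20 to 5.63 in ungrafted TEC, 4.99 to 5.35 and 4.94 to 5.33 after the first and second transplantations, and 5.33 to 5.82 in HF cultures, with 2 of the 11 under 4 in all cultures of each group; its part in the levels of Serpine2, Serpinh1 and Serpinf1 was not tested.

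Serpinf1, the secreted factor PEDF, read low and moved little. In ungrafted TEC it read 4.81, 5.0, 5.27 and 5.12, in Clone_217, Clone_218, Clone_57 and Clone_907 it read 4.28, 4.51, 5.01 and 4.6, and in Clone_287, Clone_347, Clone_194 and Clone_354 it read 4.54, 4.57, 4.75 and 4.54. Twice-grafted TEC did not overlap ungrafted TEC, at -0.45 ± 0.14 (SE; limma's adjusted p = 0.0944, 0.0446 without Clone_57 and 0.437 at most over the alternatives). HF cells read 4.76 to 5.09. The arrays of PRP4mo_bulk differed by 0.86 for this probe set, more than the change between groups. Its neighbour Serpinf2, alpha-2-antiplasmin, stayed between 5.03 and 5.50.

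Serpina1, alpha-1-antitrypsin, was the only clade A member that spanned more than 1. It read 4.80, 5.17, 4.87 and 6.29 in PRE16cl11_VII, PRP1cl11_VII, PRP4mo_bulk and PRP4mo_Cl09, 5.14, 5.16, 6.13 and 5.02 in Clone_217, Clone_218, Clone_57 and Clone_907, and 5.97, 5.05, 7.56 and 5.13 in Clone_287, Clone_347, Clone_194 and Clone_354. In HF cells it read 5.31 in YR219P5_Bulk_V, 7.29 in YR219P5cl7, 6.29 in YR219P5_RC and 6.30 in Clone_54. In each grafted TEC state the P1 clone was the highest. The group means, 5.28 ± 0.69 before grafting, 5.36 ± 0.52 after the first and 5.93 ± 1.16 after the second transplantation (SD, n = 4 each), lay within the spread between cultures.

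The P1 cultures after grafting, Clone_57 and Clone_194, thus took the same end of their group for several serpins, a pattern noticed in these levels and carried by 1 culture per state. Both were lowest for Serpinb7, Serpinb1a, Serpinb2, Serpinb6a, Serpinb8 and Serpinf2 and highest for Serpine2, Serpina1 and Serpinf1. The share of all probe sets with both cultures at the same end was not counted, so the pattern is not shown to be particular to serpins. For Serpinb7 and Serpinb1a the ungrafted P1 clone PRP1cl11_VII was the lowest (10.55) and the highest (12.26) of its group, so the order of the stages before grafting was not the same for both. Krt8, a keratin of thymic epithelium with 2 probe sets, was also lowest in Clone_57 (7.84 and 7.14) and Clone_194 (7.95 and 7.61) within their groups; its relation to the serpins was not tested.

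The other 12 clade A members spanned at most 0.75 each. They include Serpina3n and Serpina3c of the antichymotrypsin group, Serpina5 (protein C inhibitor), Serpina6 and Serpina7, which carry corticosteroids and thyroxine, and Serpina10 (a protein Z-dependent inhibitor). The highest level among them was 4.88, for Serpina3n in PRP4mo_bulk. Of these genes 11 lie with Serpina1 on chromosome 6 in GRCr8, and Serpina7 lies on X. Serpinc1 (antithrombin) read 4.67 to 5.10, Serpind1 (heparin cofactor II) 4.2 to 4.64 and Serping1 (the C1 inhibitor) 4.21 to 4.75, with no call in any comparison.

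Across the family, grafting of TEC gave no call. No serpin passed after the first transplantation, where 0.516% of all probe sets did, and 4 (11.1%) had an unadjusted p under 0.05 (limma) beside 14.8% of all probe sets. After the second, no serpin passed beside 3.86% of all probe sets, and 6 (16.7%) had an unadjusted p under 0.05 (limma) beside 19.6%. Levels of 3 and 4 of the 36 serpins did not overlap the ungrafted range in these comparisons (8.33% and 11.1%), beside 7.95% and 11.8% of all probe sets, so these shares were close to the background. The first and second transplantations differed in no serpin and in no probe set (0%), and no serpin had an unadjusted p under 0.05 (limma), beside 3.47% of all probe sets; both comparisons with ungrafted TEC share those 4 cultures. Between the first and the second, 0 of 36 serpins had levels that did not overlap, beside 1.4% of all probe sets.

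Between the tissues before grafting, 13 of 36 serpins (36.1%) did not overlap beside 25.8% of all probe sets; 10 of the 36 did not overlap with TEC higher, beside 12.8% of all probe sets. After the first transplantation 11 of 36 (30.6%) did not overlap between TEC and HF cells beside 25.5%, and only 2 of them, Serpinb11 and Serpinb1a, were higher in TEC (2 of 36 beside 6.37% of all probe sets). The median of all probe sets was -0.11 there, and the median of the serpins was -0.11 as well. In twice-grafted TEC against grafted HF cells 8 of 36 (22.2%) did not overlap beside 24.7%, among them Serpinb7, Serpinb11 and Serpinb1a higher in TEC. Grafted against ungrafted HF cells gave 7 of 36 (19.4%) beside 41.4%. The interaction gave no call among serpins or all probe sets (0%); its largest estimate was that of Serpinb7 at -3.38 ± 1.25 (SE; limma's adjusted p = 0.826), and 3 serpins (8.33%) had an unadjusted p under 0.05 (limma) beside 5.66% of all probe sets.

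The genes with which serpins work were taken from lists. These lists were chosen with earlier results of these data known, so their shares called are not a test of the lists. Of 22 receptors, cofactors and clearance genes 20 were measured. Before grafting 4 of these (20%, beside 1.55% of all probe sets called) were higher in TEC than in HF cells and none lower: the urokinase receptor Plaur (10.38 ± 0.31 against 8.56 ± 0.04), the thrombin-related receptor F2rl2 (7.79 ± 0.40 against 5.0 ± 0.97), the trypsin-activated receptor F2rl1 (9.31 ± 0.40 against 7.92 ± 0.90) and the protein C receptor Procr (8.42 ± 0.26 against 7.29 ± 0.26; SD, n = 4 and 2), with limma's adjusted p from 0.0231 to 0.0434. After the first transplantation 3 (15% beside 0.516%) were lower in TEC, Plaur at -1.90 ± 0.31, F2rl2 at -2.55 ± 0.45 and Procr at -1.0 ± 0.18 (SE; limma's adjusted p = 0.0244, 0.0290 and 0.0299). After the second, 5 were called (25% beside 3.86%): these were again lower, at -2.18 ± 0.31, -2.39 ± 0.45 and -1.18 ± 0.18, with S100a10, a plasminogen-binding protein, at -0.31 ± 0.08, and thrombomodulin (Thbd) was higher at 1.32 ± 0.34 (SE; limma's adjusted p from 0.00488 to 0.0495). The levels of Plaur ran from 10.17 to 10.84 in ungrafted TEC, from 7.36 to 9.31 in grafted TEC and from 7.98 to 8.59 in HF cells, so that grafted TEC overlapped HF cells and not ungrafted TEC. The median over the list was 0.09 in the comparison of ungrafted tissues and -0.02 in twice-grafted TEC, beside -0.01 and 0.01 over all probe sets.

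Of 47 listed target proteases 40 were measured, and 39 of them did not pass between the ungrafted tissues. The exception was cathepsin H (Ctsh), a lysosomal cysteine protease, at 8.01 ± 0.24 in TEC and 9.21 ± 0.21 in HF cells (SD, n = 4 and 2; limma's adjusted p = 0.0184). It rose in TEC by 1.51 ± 0.18 after the first and 1.61 ± 0.18 after the second transplantation (SE; limma's adjusted p = 0.0031 and 0.0011), and every grafted TEC culture (9.13 to 10.02) lay above every ungrafted one (7.70 to 8.2). Casp1, the protease that matures interleukin-1, read 3.38 to 3.98 in ungrafted TEC, not distinguished from background, and 5.14 to 7.07 in grafted TEC; it rose after both transplantations (limma's adjusted p = 0.0339 and 0.0267), and with the ungrafted levels set at 4 the means were at least 5.87-fold and 4.32-fold higher. After the second transplantation the complement protease C1r (2.0 ± 0.52), the kallikrein Klk11 (1.54 ± 0.31) and cathepsin B (Ctsb, 0.30 ± 0.07) also rose, and urokinase (Plau), the target of Serpinb2 and Serpine2, was lower, at -1.30 ± 0.32 (SE; limma's adjusted p from 0.0188 to 0.0498). The list thus had 5 higher and 1 lower of 40 in that comparison (15% beside 3.86% of all probe sets called), with a median of 0.04 beside 0.01 over all probe sets. Elane and Ctsg, neutrophil proteases that Serpinb1a inhibits, read 4.80 to 5.22 and 3.73 to 4.12 over all cultures.

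Of 34 other protease inhibitors 28 were measured. Timp2, an inhibitor of metalloproteases, was 2.84 ± 0.60 higher in ungrafted TEC than in HF cells (10.43 ± 0.39 against 7.58 ± 0.44, SD, n = 4 and 2; limma's adjusted p = 0.0351), and was the only one called there (3.57% beside 1.55% of all probe sets). In twice-grafted TEC 2 were lower (7.14% beside 3.86% of all probe sets called): Tfpi, the inhibitor of the tissue factor pathway, at -2.04 ± 0.40 (limma's adjusted p = 0.0177), and the cystatin Cst6 at -1.18 ± 0.28 (SE; limma's adjusted p = 0.0369). Tfpi read 4.96 to 7.18 in ungrafted and 3.64 to 4.27 in twice-grafted TEC, where 3 of the 4 cultures were under 4; with those set at 4 the difference was -1.88. The list median was 0.02 between ungrafted tissues and -0.0013 in twice-grafted TEC.

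**Figure D5:**
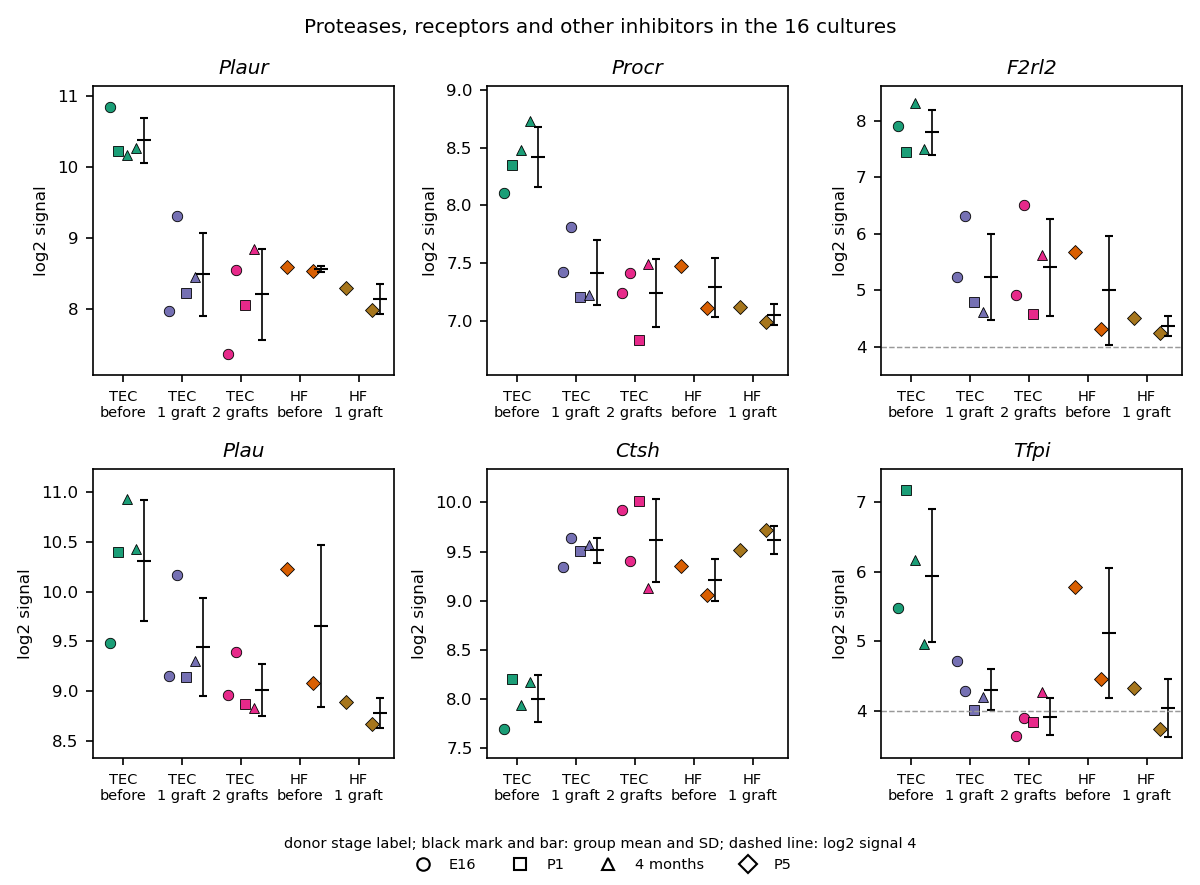
Log2 signal of 2 receptors bound by proteases or protein C (Plaur, Procr), the receptor F2rl2, the proteases Plau and Ctsh and the inhibitor Tfpi in the 16 cultures; points are cultures, shapes donor stages, and the black mark and bar are the group mean and SD. Ungrafted TEC stand apart from grafted TEC for Plaur (10.17 to 10.84 against 7.36 to 9.31) and Ctsh (7.70 to 8.2 against 9.13 to 10.02).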

How the data were processed

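RNA of 16 rat cultures was measured on 32 Affymetrix arrays. Deposited were log2 signals per probe set; per the submitters' processing notes the authors used Expression Console with RMA, a summary over a set's probes that narrows differences near background. The values ran from 1.53 to 14.03, from which log base 2 was taken. Of 29215 probe sets, 15310 had 1 gene symbol in the platform annotation, 323 several and 13582 none. The 2 arrays of a culture were averaged, and limma 3.58.1 in R 4.3.3 fitted 5 group means over all 16 cultures; p-values were adjusted by Benjamini-Hochberg over the 15310 probe sets of a comparison, with 0.05 as threshold. The fit was tested on simulated data. Donor stage was compared within the 12 TEC cultures with grafting state in the model. The members and lists were chosen with earlier results of these data known. Named with every culture are serpins past the threshold, Serpinb7, Serpinb1a and those with a mean of 10 or more; Serpinb8, Serpinb9, Serpine2 and Serpina1 were added after their values were seen. Promoters and gene order are from RefSeq (GRCr8); all 36 genes matched by gene ID. The number of cultures, with 2 in each HF group, limits the precision. Alternatives were 2 scalings, arrays with culture as a random block, fewer groups, donor stage, clones alone, a filter at 4, all probe sets, robust moderation and each culture left out.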

Additional observations from a re-analysis of the deposited data

Results flagged for a closer look

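Of 108 groups of 4 cultures (36 serpins in 3 TEC groups), 9 had a culture whose gap to the nearest other exceeded Dixon's 95% critical value for 4 samples; chance flags about 1 group in 20. In ungrafted TEC, PRE16cl11_VII was high for Serpinb7 (11.33, the others 10.55 to 10.64), PRP4mo_bulk was high for Serpine2 (9.43, the others 6.34 to 6.70) and Serpina3n (4.88, the others 4.15 to 4.26), and PRP4mo_Cl09 was high for Serpinb13 (3.15, under the background level). After the first transplantation, Clone_57 was low for Serpinb8 (7.63, the others 8.65 to 8.85) and high for Serpina1 (6.13, the others 5.02 to 5.16). After the second, Clone_347 was high for Serpina3c (4.57, the others 4.26 to 4.29), and Clone_194 was high for Serpinf1 (4.75) and low for Serpina5 (2.84, under the background level). The arrays of Clone_347 read 4.37 and 4.77 for Serpina3c. Their medians over all probe sets were 5.38 and 5.55, so a shift of the second array cannot be told apart from a high culture.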

How the results depend on the processing

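No called serpin difference changed direction under any alternative run. The count of serpins called between ungrafted TEC and HF cells (3) was 1 with arrays centred, with quantile normalization and with only the compared groups in the fit, 6 with all 32 arrays fitted and culture taken as a random block, and 0 among clonal cultures alone. The count between grafted TEC and HF cells (1) was 0 with either scaling, only the compared groups or clonal cultures alone, 3 with the random block and 2 with donor stage as a covariate. For twice-grafted TEC against grafted HF cells (0) it was 3 with the random block, 2 with donor stage, 1 with all probe sets and 1 with YR219P5_RC by its array 2 alone, an alternative chosen after seeing the data. For grafting in TEC (0) it was 3 with the random block after either transplantation, and after the second 1 with only the compared groups and 1 with donor stage; between donor stages (0) it was 1 with the random block. With each culture left out in turn, counts ran from 1 to 5 between ungrafted tissues, 0 to 1 after the first and 0 to 2 after the second transplantation of TEC, 0 to 0 between them, 0 to 2 for grafting of HF cells, 0 to 1 for either comparison of grafted tissues, 0 to 1 for the interaction and 0 to 0 between donor stages. The causes of these changes were not tested. The random block fit partly treats the 2 arrays of a culture as replicates, so its counts can be too high. A culture outside a comparison acts on its p-values only through the spread pooled over the groups. Where an HF group is not compared, leaving out either of its 2 cultures gives the same test. No paired analysis was possible because the labels do not tie a grafted culture to its ungrafted parent. The numbers in the sample titles give no pairing either, since they count the 2 arrays of a culture, which were averaged. Probe sets near or under 4 limit what can be said of the dim serpins.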
